A study of Homo sapiens with 24 samples.

Results

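The BCL2 family of apoptosis regulators was followed at the transcript level in 22Rv1 cells, an established human prostate carcinoma line, after exposure to KB05, KB02 or vehicle. The family was taken as 10 genes named by symbol, and all 10 were among the 60232 genes of the deposited table. It comprises 5 BH3-only genes (PMAIP1, BBC3, BCL2L11, BIK and BID), 2 effector genes (BAX and BAK1) and 3 protective genes (MCL1, BCL2L1 and BCL2L2). KB05 and KB02 are small molecules that the labels give by code name only, and each was given at 200 µM for 1 h followed by 2 h in fresh medium. The reference cells received DMSO, and the sample titles place all groups at 3 h, while the deposited columns are tagged 2 h, which was taken to mean the recovery. Each group held 3 libraries, described as biological triplicates, and nothing in the labels says that the 3 cultures of a group were started independently. The question addressed is how each compound changed the transcripts of the 3 roles, and whether KB05 and KB02 differed at a matched dose and time. BCL2 proteins decide through contacts with each other whether a cell keeps its mitochondrial outer membrane intact. BH3-only proteins sense stress and bind the protective members or the effectors, protective members hold the effectors in check, and freed effectors form pores that release cytochrome c and start the caspase cascade.

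The BH3 motif is the stretch through which these proteins recognise each other, and its coding bases are shown because they are what the 3 roles have in common. In each gene a single stretch of 8 codons matched the motif core in the principal transcript of GENCODE release 29 (GRCh38). The bases run 5′ to 3′ on the coding strand, and capitals mark the codon of the conserved leucine (methionine in BCL2L2) and the codons of the glycine (alanine in BBC3) and aspartate that follow it.
PMAIP1: CTCaggagatttGGAGACaaactg
BBC3: CTGcggcggatgGCGGACgacctc
BCL2L11: TTGcggcgtattGGAGACgagttt
BIK: CTGgcctgcatcGGGGACgagatg
BID: CTCgcccaggtcGGGGACagcatg
BAX: CTCaagcgcatcGGGGACgaactg
BAK1: CTCgccatcatcGGGGACgacatc
MCL1: TTAcgacgggttGGGGATggcgtg
BCL2L1: CTGagggaggcaGGCGACgagttt
BCL2L2: ATGcgggcagctGGAGATgagttc
Against the stretch of BCL2L11, the other genes shared 9 (BID) to 16 (BBC3 and BCL2L2) of 24 bases. The core lies at residues 29 to 36 of a 54-residue protein in PMAIP1, the smallest of the set, and at residues 213 to 220 of 350 in MCL1, the largest. Not every isoform carries it: 7 of 14 coding transcripts of BCL2L11 and 4 of 11 of BID hold the core, against 3 of 3 for MCL1. The deposited values are sums per gene, so isoforms with and without the core could not be separated.

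Total counts per library ran from 15507130 to 21900671. Levels are given as CPM, counts scaled to a common library size with TMM factors, and changes as log2 fold changes ± the standard error (SE) from edgeR's quasi-likelihood test over all 9 libraries. A gene was called where its p, adjusted by Benjamini-Hochberg over the 18379 genes tested, was under 0.05. All 10 members passed the filter on low counts. Calls were common: 39.8% of all genes tested were called for KB05 against DMSO, 46.1% for KB02 against DMSO and 40.0% for KB05 against KB02. The 10 markers of prostate luminal cells chosen for this line, among them KRT8 and KRT18, were present in every library, with summed levels of 3174 to 3233 CPM for KB05, 2461 to 2620 CPM for KB02 and 2698 to 3064 CPM for DMSO. The 15 markers of blood, endothelial, stromal and basal cells summed to 43.0 to 44.2, 46.9 to 57.0 and 36.4 to 51.5 CPM. The stromal marker COL1A1 averaged 19.7, 22.7 and 14.5 CPM with KB05, KB02 and DMSO, and was detected in every library. So was the leukocyte marker PTPRC, at 11.8, 9.67 and 14.2 CPM. Only 1 of the 15, the endothelial marker CDH5, was at 0 throughout. Single markers stood apart with KB02: the monocyte marker CD14 averaged 0.397, 8.81 and 0.541 CPM, and the epithelial marker EPCAM 130, 62.0 and 169 CPM, with KB05, KB02 and DMSO. Mitochondrially encoded transcripts took 13.5% to 14.8% of counts in KB05 libraries, 14.9% to 16.2% in KB02 libraries and 16.8% to 18.7% in DMSO libraries, ranges that do not overlap between groups. Their part in the results below was not tested. Fewer cells and less RNA per cell cannot be told apart in such bulk libraries.

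**Figure D1:**
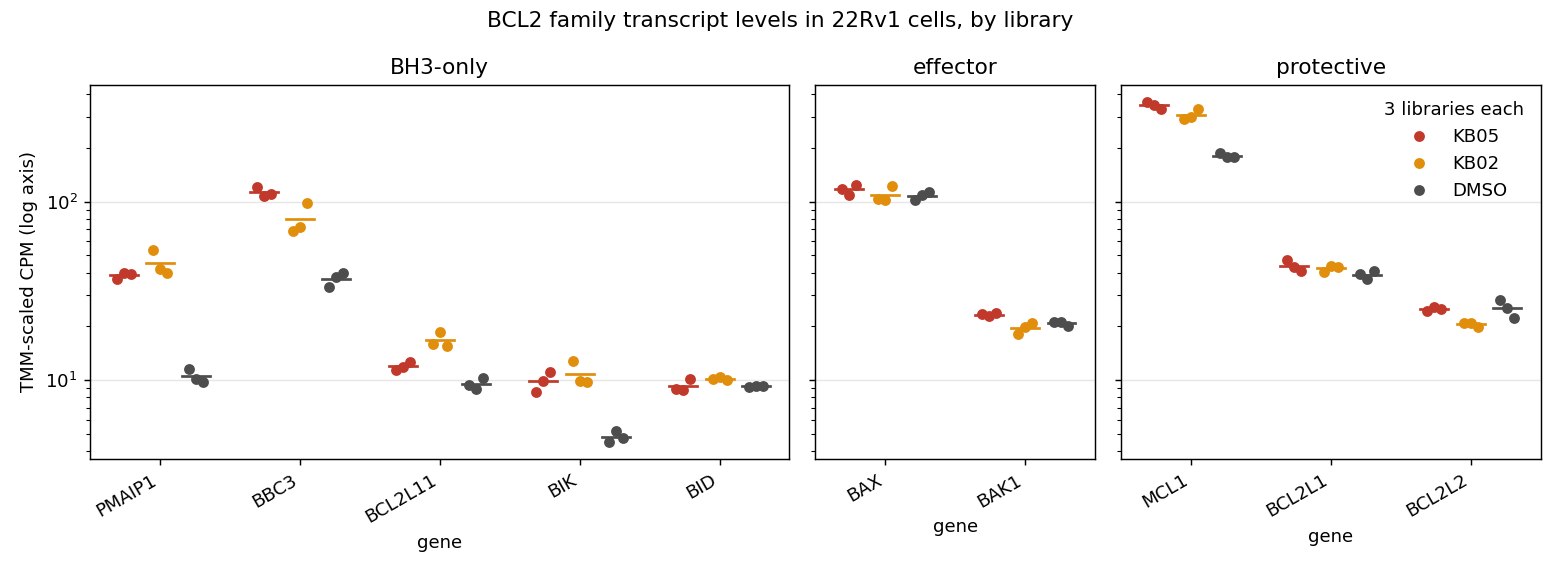
TMM-scaled CPM (log axis) of the 10 family members, 1 point per library and a bar at the mean of 3 libraries, in panels by role. PMAIP1, BBC3, BCL2L11, BIK and MCL1 stand higher in every KB05 and KB02 library than in any DMSO library. BID, BAX, BAK1 and BCL2L1 lie close together across groups, while for BCL2L2 the KB02 libraries lie below all others.

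Both compounds raised 4 of the 5 BH3-only genes and the protective gene MCL1, and neither effector gene was called against DMSO. For KB05, 5 members rose (4 in the 6 of 17 alternative settings that lost the BCL2L11 call), none fell and 5 were not called, with members' log2 fold changes between -0.02 and 1.88 and a median of 0.24, against a median of -0.00 over all genes. For KB02, 5 members rose, 1 fell and 4 were not called, with changes between -0.30 and 2.10 and a median of 0.45, against 0.00 over all genes. Over all genes tested, 18.7% rose and 21.1% fell for KB05, and 22.8% rose and 23.3% fell for KB02. Counted in either direction, 5 and 6 of the 10 members were called, close to the shares of all genes given above, so the count alone says little about the family. No test of the family as a set was made. Both comparisons use the same 3 DMSO libraries, so their counts are not independent of each other.

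Among the 5 BH3-only members, PMAIP1 moved furthest from DMSO with each compound. It encodes NOXA, a short-lived protein that binds MCL1 preferentially, and lies on chromosome 18 at 59899948 to 59904306 (plus strand). PMAIP1 had 36.9, 39.8 and 39.2 CPM in the KB05 libraries, 53.6, 41.7 and 39.8 CPM in the KB02 libraries, and 11.6, 10.2 and 9.73 CPM in the DMSO libraries. Every treated library stood above every DMSO library, and 1 KB02 library stood above the other 5 treated ones. The level was 3.67-fold higher with KB05 (log2 1.88 ± 0.11, adjusted p = 4.96e-14) and 4.29-fold higher with KB02 (log2 2.10 ± 0.11, adjusted p = 1.4e-15). By absolute change PMAIP1 ranked 502 of the 18379 genes for KB05 and 404 for KB02.

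BBC3 encodes PUMA, a BH3-only protein that binds all protective members, and lies on chromosome 19 at 47220822 to 47232766 (minus strand). Its levels were 121, 107 and 110 CPM with KB05, 68.7, 71.7 and 97.9 CPM with KB02, and 33.1, 37.7 and 39.8 CPM with DMSO. The 3 groups did not overlap, and KB02 had the widest spread, set by replicate 3. BBC3 was 3.06-fold higher with KB05 (log2 1.61 ± 0.13, adjusted p = 1.56e-06) and 2.15-fold higher with KB02 (log2 1.11 ± 0.13, adjusted p = 2.3e-05).

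BIK, which encodes a BH3-only protein resident at the endoplasmic reticulum, lies on chromosome 22 at 43110748 to 43129712. Its transcript was low, with 8.60, 9.82 and 11.2 CPM in KB05 libraries, 12.7, 9.82 and 9.75 CPM in KB02 libraries and 4.50, 5.16 and 4.74 CPM in DMSO libraries. Treated libraries overlapped each other and none reached down to the DMSO range. BIK rose 2.05-fold with KB05 (log2 1.03 ± 0.15, adjusted p = 2.47e-06) and 2.24-fold with KB02 (log2 1.17 ± 0.15, adjusted p = 1.11e-07). These values rest on 151 to 194 counts per library for KB05, 176 to 295 for KB02 and 78 to 100 for DMSO.

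BCL2L11 encodes BIM, which can bind protective and effector members alike, and lies on chromosome 2 at 111119378 to 111168447 (plus strand). Levels of 11.3, 11.8 and 12.6 CPM with KB05 stood beside 16.0, 18.7 and 15.6 CPM with KB02 and 9.37, 8.88 and 10.3 CPM with DMSO. The groups did not overlap, with KB05 between the other two. BCL2L11 rose 1.77-fold with KB02 (log2 0.82 ± 0.12, adjusted p = 8.47e-07) and 1.25-fold with KB05 (log2 0.33 ± 0.12, adjusted p = 0.0338). The KB05 call was lost without DMSO replicate 1 (0.31, adjusted p = 0.0738), DMSO replicate 2 (0.28, 0.128), KB05 replicate 2 (0.33, 0.0661) or KB05 replicate 3 (0.28, 0.123), and with DESeq2 (0.31, 0.0736) or no filter on low counts (0.32, 0.0585). A non-coding gene on the opposite strand, MIR4435-2HG, overlaps BCL2L11 and reached at most 1.18 CPM in any library.

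BID links death receptors to mitochondria after caspase-8 cuts its protein, a step that transcript levels do not show. Its gene lies on chromosome 22 at 17734138 to 17774770 (minus strand) and averaged 9.25 ± 0.752 CPM with KB05, 10.2 ± 0.175 CPM with KB02 and 9.21 ± 0.0495 CPM with DMSO (SD, n = 3 each). It was not called with KB05 (log2 0.01, 95% interval -0.25 to 0.27, adjusted p = 0.976) or with KB02 (0.14, -0.11 to 0.40, adjusted p = 0.378), intervals that leave room for a rise of up to 0.40 on the log2 scale.

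The effector genes, BAX on chromosome 19 (48954815 to 48961798, plus strand) and BAK1 on chromosome 6 (33572547 to 33580293, minus strand), showed no called change against DMSO. BAX, whose protein moves from the cytosol to mitochondria on activation, had 118, 110 and 124 CPM with KB05, 104, 102 and 122 CPM with KB02 and 102, 109 and 113 CPM with DMSO, so all 3 groups overlapped. Its log2 change was 0.12 (95% interval -0.04 to 0.27, adjusted p = 0.239) for KB05 and 0.01 (-0.14 to 0.17, adjusted p = 0.895) for KB02. BAK1, whose protein sits in the outer membrane of resting cells, averaged 23.3 ± 0.472 CPM with KB05, 19.6 ± 1.41 CPM with KB02 and 20.8 ± 0.525 CPM with DMSO (SD, n = 3 each). All KB05 libraries lay above the DMSO range for BAK1, and KB02 libraries overlapped it. The change in BAK1 was 0.16 (-0.03 to 0.35, adjusted p = 0.177) for KB05 and -0.09 (-0.28 to 0.11, adjusted p = 0.485) for KB02.

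Of the protective genes, MCL1 rose with both compounds. It encodes a protein of rapid turnover and the main binding partner of NOXA, and lies on chromosome 1 at 150574551 to 150579738 (minus strand). MCL1 had 362, 350 and 333 CPM in the KB05 libraries, 289, 300 and 331 CPM in the KB02 libraries, and 188, 178 and 177 CPM in the DMSO libraries. The lowest treated library, at 289 CPM, stood well above the highest DMSO library. MCL1 was 1.92-fold higher with KB05 (log2 0.94 ± 0.07, adjusted p = 3.94e-12) and 1.69-fold higher with KB02 (log2 0.76 ± 0.07, adjusted p = 1.16e-10). The overlapping gene ADAMTSL4-AS1 averaged 1.56 CPM with KB05, 0.209 CPM with KB02 and 0.199 CPM with DMSO, small beside MCL1.

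BCL2L1 lies on chromosome 20 at 31664452 to 31723989 (minus strand) and BCL2L2 on chromosome 14 at 23298790 to 23311759 (plus strand). BCL2L1, whose main product BCL-XL guards the outer membrane in many epithelial cells, had 46.8, 42.8 and 41.0 CPM with KB05, 40.3, 43.6 and 42.7 CPM with KB02 and 39.5, 36.7 and 40.8 CPM with DMSO. KB02 libraries overlapped the DMSO range, and KB05 libraries lay just above it. The log2 changes of 0.16 for KB05 (95% interval -0.00 to 0.33, adjusted p = 0.111) and 0.12 for KB02 (-0.05 to 0.28, adjusted p = 0.249) were not called. With library size alone as scaling, BCL2L1 was called higher with KB02 (0.25, adjusted p = 0.0131). BCL2L2, which encodes the related protein BCL-W, had 24.3, 25.6 and 24.9 CPM with KB05, 20.8, 20.8 and 19.8 CPM with KB02 and 28.0, 25.5 and 22.4 CPM with DMSO. KB02 libraries lay below all others, and KB05 libraries within the DMSO range. BCL2L2 was the 1 member that fell, being 1.23-fold lower with KB02 (log2 -0.30 ± 0.09, adjusted p = 0.00844), and it was not called with KB05 (-0.02, -0.21 to 0.17, adjusted p = 0.883). The KB02 call was lost without DMSO replicate 1 (-0.23, adjusted p = 0.0598), without DMSO replicate 2 (-0.25, 0.0622) and with library size alone as scaling (-0.17, 0.164). BCL2L2 is also an uncertain count, since a read-through gene, BCL2L2-PABPN1, shares its exons and averaged 6.31, 4.19 and 4.16 CPM with KB05, KB02 and DMSO. With the counts of both summed, an alternative chosen after the data were seen, the log2 change was -0.26 (adjusted p = 0.0158) for KB02 and 0.09 for KB05.

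**Figure D2:**
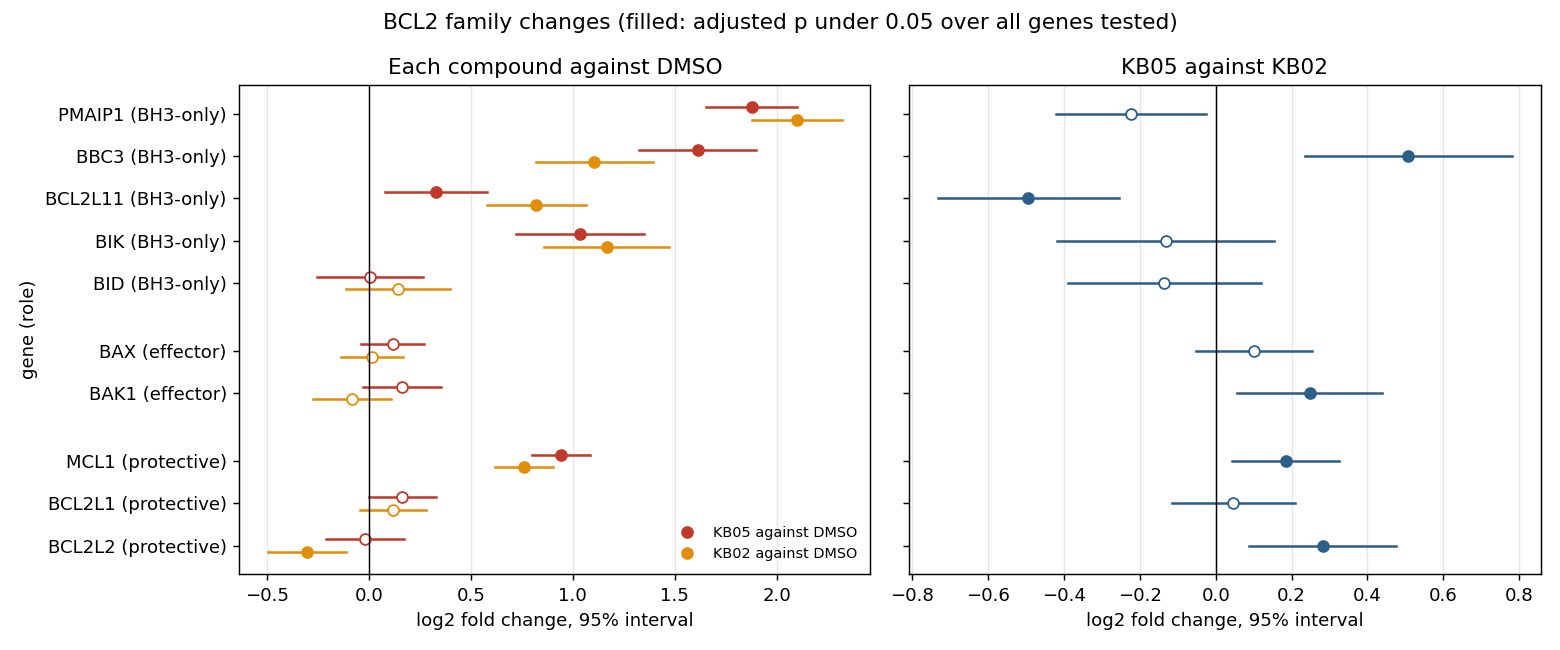
Log2 fold changes of the 10 members with 95% intervals, for each compound against DMSO (left) and for KB05 against KB02 (right), with filled points where the adjusted p over all genes tested was under 0.05. PMAIP1 reaches 1.88 with KB05 and 2.10 with KB02, while on the right BBC3 at 0.51 and BCL2L11 at -0.49 lie furthest from 0 in opposite directions.

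The 2 compounds form 1 pair at matched dose and time, and they were compared directly. In KB05 against KB02, 4 members were higher, 1 was lower and 5 were not called, with members' log2 fold changes between -0.49 and 0.51 and a median of 0.07, against 0.06 over all genes. Over all genes tested, 21.8% were higher and 18.2% lower, and the 5 of 10 members called stand near the 40.0% of all genes. BBC3 was 1.42-fold higher with KB05 than with KB02 (log2 0.51 ± 0.12, adjusted p = 0.00658), a call lost in a fit of these 2 groups alone (0.47, adjusted p = 0.0552). BCL2L11 was 1.41-fold lower with KB05 than with KB02 (log2 -0.49 ± 0.12, adjusted p = 0.000944), and this call held in all 17 alternative settings. The BH3-only genes thus did not differ between compounds in 1 direction, and their median was -0.14.

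Calls of smaller differences between the compounds depended on the setting. MCL1 was 1.14-fold higher with KB05 than with KB02 (log2 0.19 ± 0.07, adjusted p = 0.0316), BAK1 1.19-fold higher (0.25 ± 0.09, 0.0337) and BCL2L2 1.22-fold higher (0.28 ± 0.09, 0.0171). With all 9 libraries kept, the MCL1 and BAK1 calls were lost under RLE, upper-quartile or library-size scaling. The BCL2L2 call was lost with library size alone as scaling or with DESeq2. The MCL1 call was lost in 9 of 17 settings, among them those without DMSO replicate 2 (0.14, adjusted p = 0.148), KB02 replicate 1 (0.09, 0.376), KB02 replicate 2 (0.12, 0.263), KB05 replicate 1 (0.16, 0.117) or KB05 replicate 2 (0.18, 0.0814). The BAK1 call was lost in 12 of 17 settings, including those without DMSO replicate 2 (0.20, adjusted p = 0.0991), KB02 replicate 1 (0.14, 0.326), KB02 replicate 2 (0.21, 0.143) or any of KB05 replicates 1 (0.25, 0.0682), 2 (0.27, 0.0537) and 3 (0.24, 0.0929). That of BCL2L2 was lost in 7, including those without DMSO replicate 2 (0.24, adjusted p = 0.0584), any of KB02 replicates 1 (0.24, 0.0878), 2 (0.25, 0.0841) and 3 (0.26, 0.0531) or KB05 replicate 2 (0.27, 0.0567). PMAIP1 was not called (log2 -0.22, 95% interval -0.42 to -0.03, adjusted p = 0.0662) but passed the threshold, lower with KB05, in 7 of 17 settings, including those without DMSO replicate 2 (-0.27, 0.0359), KB02 replicate 2 (-0.33, 0.0206) or KB02 replicate 3 (-0.31, 0.0176). Without KB02 replicate 1, the library with the highest PMAIP1 level, the difference shrank to -0.13 (adjusted p = 0.336). BIK (-0.13, -0.42 to 0.15, adjusted p = 0.49), BID (-0.14, -0.39 to 0.12, 0.421), BAX (0.10, -0.05 to 0.25, 0.306) and BCL2L1 (0.05, -0.12 to 0.21, 0.686) were not called, and these intervals do not show that the compounds act alike on them.

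Because NOXA binds MCL1, the counts of PMAIP1 and BBC3 were also set against those of protective genes within each library, a ratio that needs no scaling between libraries. Per 100 counts of MCL1, PMAIP1 had 11.1 ± 0.82 counts with KB05, 14.8 ± 3.35 with KB02 and 5.79 ± 0.336 with DMSO (SD, n = 3 each). BBC3 had 32.3 ± 1.49, 25.8 ± 3.32 and 20.4 ± 2.53 counts per 100 counts of MCL1 in the KB05, KB02 and DMSO groups. In both ratios every treated library stood above every DMSO library. Against BCL2L1, whose own change was not called, the shifts were larger: per 100 BCL2L1 counts, PMAIP1 had 89.1 ± 8.88 with KB05, 107 ± 22.2 with KB02 and 27.0 ± 2.83 with DMSO, and BBC3 had 259 ± 8.34, 188 ± 35.7 and 94.8 ± 9.78. These ratios compare transcripts and say nothing of protein.

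**Figure D3:**
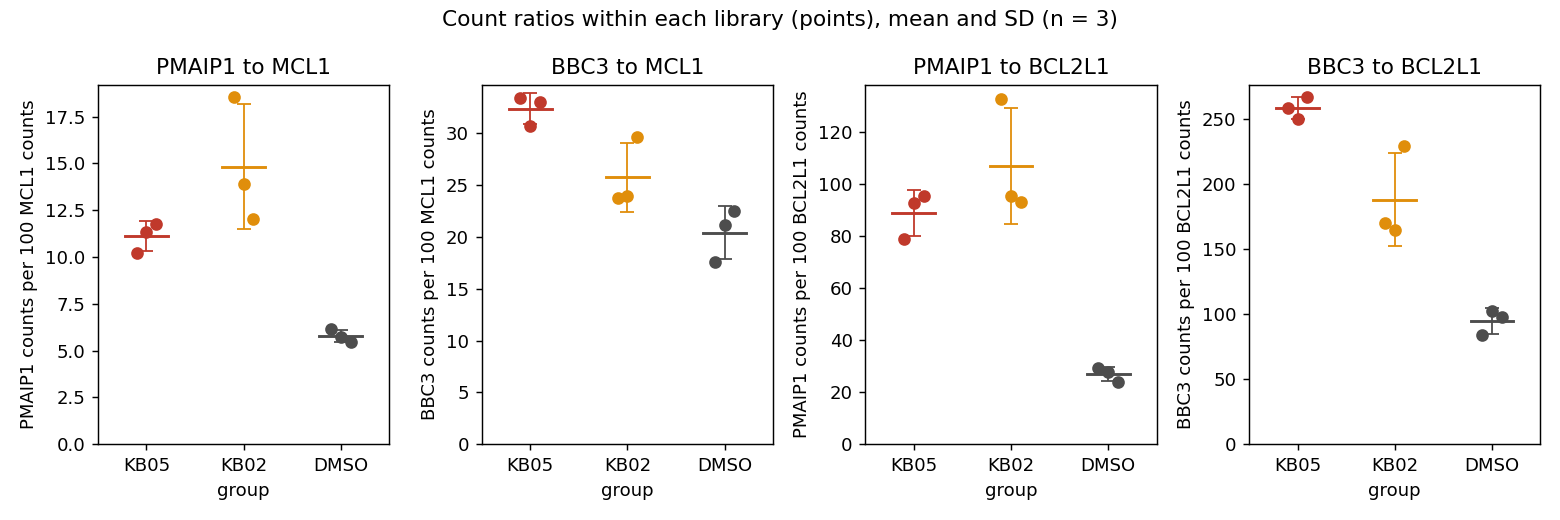
Counts of PMAIP1 and BBC3 per 100 counts of MCL1 or of BCL2L1 within each library, 1 point per library, with the mean and SD of 3 libraries per group and axes starting at 0. PMAIP1 averages 11.1 and 14.8 counts per 100 MCL1 counts with KB05 and KB02, against 5.79 with DMSO.

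The order of members by level was compared per length, as CPM per kb of the union of a gene's exons. With KB05 the order was MCL1 (79.7 CPM per kb), BAX (45.3), BBC3 (35.4), PMAIP1 (17.3), BCL2L1 (13.1), BAK1 (10.5), BIK (10.3), BCL2L2 (5.95), BID (2.08) and BCL2L11 (1.79), with overlapping library ranges only for BAK1 and BIK. With KB02 the first 5 places were the same, with MCL1 at 70.1 and PMAIP1 at 20.1 CPM per kb, and the ranges of BBC3 and PMAIP1 overlapped, as did those of BCL2L1 and BIK. With DMSO, BAX (41.8) and MCL1 (41.5) led with overlapping ranges, followed by BCL2L1 (11.8) and BBC3 (11.6), and PMAIP1 stood at 4.70 with a range that overlapped that of BIK (5.04). PMAIP1 thus held the fourth place in both treated groups, against the eighth in DMSO cells. This order depends on the length used: with principal transcript lengths, an alternative chosen after the data were seen, BAX came first in every group, at 148, 138 and 136 CPM per kb with KB05, KB02 and DMSO, while PMAIP1 kept the fourth and the eighth place.

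Members that rose and members that did not are shown with bases before their start, because the windows of these members differ in content. Windows of 300 bases (250 before and 50 after each start, RefSeq, GRCh38.p14) existed for 7 of the 10 members and held 12 starts. BIK, MCL1 and BCL2L2 had no entry. The bases below are those that lie before both the RefSeq start and the GENCODE gene, 5′ to 3′ on the gene's strand, with capitals on matches to the motifs named next. They cover chr18:59899746-59899947 (plus strand) for PMAIP1, which rose most, chr19:47232767-47232917 (minus strand) for BBC3, which also rose, and chr19:48954625-48954814 (plus strand) for BAX, which was not called.
PMAIP1: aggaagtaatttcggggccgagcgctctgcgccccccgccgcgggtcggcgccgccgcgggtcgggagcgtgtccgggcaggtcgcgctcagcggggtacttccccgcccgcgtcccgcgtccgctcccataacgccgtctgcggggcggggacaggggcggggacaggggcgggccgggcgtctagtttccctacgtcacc
BBC3: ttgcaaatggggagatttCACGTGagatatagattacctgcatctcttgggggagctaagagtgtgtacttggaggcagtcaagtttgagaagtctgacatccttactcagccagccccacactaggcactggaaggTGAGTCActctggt
BAX: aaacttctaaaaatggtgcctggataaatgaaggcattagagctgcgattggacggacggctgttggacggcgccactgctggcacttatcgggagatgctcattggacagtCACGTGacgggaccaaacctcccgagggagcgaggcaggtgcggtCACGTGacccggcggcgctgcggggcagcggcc
Searched on both strands were TGACGTCA (cAMP response element), TGACGCAA and TGATGCAA (ATF4 and C/EBP composite), TGANTCA (AP-1), GAANNTTC (heat shock element), CACGTG (E-box) and GCGTGGGCG (EGR1), none of which overlapped another in these windows. BBC3 held 1 AP-1 match 113 bases before its start and 1 E-box, and BAX held 4 E-boxes over its whole window. The PMAIP1, BCL2L11 and BCL2L1 windows held none of the 7 motifs, BAK1 held 1 heat shock element, and 2 overlapping BID windows held the same E-box. Of 35116 windows of all genes, 7.71% hold the AP-1 motif, 7.26% the E-box and 6.77% the heat shock element. A match is a description of letters, and no factor was measured at these sites.

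Other relatives of the family, from a list of 13 genes of which 12 passed the filter (BCL2A1 did not), included a gene that fell with both compounds. BMF, a BH3-only gene whose protein is tethered to the cytoskeleton and is released on detachment, had 16.5, 15.3 and 15.2 CPM with KB05, 9.14, 8.42 and 8.37 CPM with KB02 and 35.2, 47.6 and 53.9 CPM with DMSO. No 2 groups overlapped. BMF fell to a level 2.90-fold lower with KB05 than with DMSO (log2 -1.54 ± 0.12, adjusted p = 4.2e-10) and 5.26-fold lower with KB02 than with DMSO (log2 -2.39 ± 0.13, adjusted p = 9.52e-14), and it differed between KB05 and KB02 by 0.86 ± 0.13 (adjusted p = 1.13e-05). With KB05, 3 of the 12 rose and 1 fell, and with KB02, 4 rose and 1 fell, with median log2 changes of 0.13 and 0.22. Of all genes tested, 39.8% were called for KB05 and 46.1% for KB02, so these counts are not a result about the list. The risers with KB05 were BAD, a BH3-only protein controlled by phosphorylation (log2 0.42 ± 0.07, adjusted p = 2.21e-05), BCL2L12 (0.38 ± 0.08, 0.000206) and BCL2L13, a receptor for the clearance of mitochondria (0.39 ± 0.08, 0.00041). With KB02, BCL2L12 rose by 0.70 ± 0.08 (adjusted p = 6.61e-09), BCL2L13 by 0.41 ± 0.08 (0.000109), BAD by 0.27 ± 0.07 (0.00283) and BNIP3 by 0.26 ± 0.10 (0.0351). BCL2 itself, the protective founder of the family, was low, with 8.34 ± 2.22, 8.55 ± 0.145 and 7.54 ± 0.819 CPM for KB05, KB02 and DMSO (SD, n = 3 each), and was not called.

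Downstream of the effectors, 2 of 13 caspase and apoptosome genes rose and none fell with KB05, and 3 rose and 1 fell with KB02. Both counts lie below the shares of all genes called, 39.8% for KB05 and 46.1% for KB02. DIABLO, which encodes the SMAC protein that mitochondria release to block inhibitors of apoptosis, averaged 97.4 ± 3.47 CPM with KB05, 116 ± 5.27 CPM with KB02 and 67.0 ± 0.662 CPM with DMSO (log2 0.54 ± 0.07, adjusted p = 2.12e-07, and 0.79 ± 0.07, adjusted p = 3.53e-11). CASP9, the initiator caspase of this route, rose by 0.58 ± 0.12 with KB05 (adjusted p = 0.000204) and by 0.61 ± 0.12 with KB02 (6.29e-05). CASP10 also rose with KB02, to 1.13 ± 0.132 CPM against 0.485 ± 0.168 CPM with DMSO (SD, n = 3 each). Its log2 change was 1.20 (95% interval 0.31 to 2.09, adjusted p = 0.0243), at a low level averaging -0.16 in log2 CPM. CASP10 was not among the genes recomputed under alternative settings.

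Death receptors feed the same caspases from the cell surface, and of 11 receptor and adaptor genes 1 rose and 4 fell with KB05, and 2 rose and 6 fell with KB02, with median log2 changes of -0.15 and -0.22. Among all genes tested, 18.7% rose and 21.1% fell with KB05, and 22.8% rose and 23.3% fell with KB02. The list was not tested as a set. TNFRSF10D, a decoy receptor for the ligand TRAIL, had 4.01, 5.46 and 5.92 CPM with KB05, 14.8, 13.7 and 12.7 CPM with KB02 and 20.0, 20.0 and 14.5 CPM with DMSO. It fell by 1.83 ± 0.15 on the log2 scale with KB05 (adjusted p = 6.62e-11), and the KB05 libraries lay apart from all others. TNFRSF10D was also called lower with KB02 (log2 -0.405 ± 0.133, adjusted p = 0.0131), though the KB02 and DMSO ranges overlapped. FAS, the receptor for FAS ligand, had 11.5, 11.0 and 11.3 CPM with KB05, 6.32, 7.16 and 4.96 CPM with KB02 and 14.1, 10.2 and 10.9 CPM with DMSO. It fell by 0.92 ± 0.15 with KB02 (adjusted p = 4.25e-06), was not called with KB05 (-0.05, adjusted p = 0.807), and was higher with KB05 than with KB02 (0.87 ± 0.15, 1.59e-05). TNFRSF1A, the main receptor for tumour necrosis factor, fell with both, by 0.45 ± 0.07 with KB05 (adjusted p = 4.31e-06) and by 0.88 ± 0.07 with KB02 (4.2e-12).

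Among 6 inhibitor of apoptosis genes, BIRC6 went opposite ways with the compounds. BIRC6, a very large ubiquitin ligase that restrains caspases and SMAC, had 20.4, 21.3 and 25.1 CPM with KB05, 96.9, 89.1 and 83.0 CPM with KB02 and 28.6, 28.1 and 25.4 CPM with DMSO. It rose with KB02 (log2 1.71 ± 0.09, adjusted p = 2.67e-16) and fell with KB05 (-0.30 ± 0.09, adjusted p = 0.00914), the KB05 call being lost without KB05 replicate 1 (-0.24, 0.0696), and the difference between KB05 and KB02 was -2.01 ± 0.09 (adjusted p = 1.93e-17). BIRC2, which encodes the ligase cIAP1, fell by 0.55 ± 0.10 with KB05 (adjusted p = 4.27e-05) and was not called with KB02 (-0.01, 0.923). With KB05, none of the 6 rose and 2 fell, and with KB02, 1 rose and 1 fell. These counts do not exceed the 39.8% and 46.1% of all genes called for KB05 and KB02, and are not a result about the list. The gene that fell with KB02 was BIRC3 (-0.69 ± 0.24, adjusted p = 0.0192), a call lost without DMSO replicate 3 (-0.42, 0.199), KB02 replicate 1 (-0.57, 0.0934) or KB02 replicate 2 (-0.49, 0.139).

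Of 7 measured genes that control the turnover of MCL1 and NOXA protein, 2 rose and 1 fell with KB05, and 4 rose and none fell with KB02. These counts stand near the 39.8% and 46.1% of all genes called for KB05 and KB02, so they are not a result about the list. USP9X, a deubiquitinase that stabilises MCL1, averaged 49.5 ± 5.81 CPM with KB05, 111 ± 4.56 CPM with KB02 and 55.1 ± 1.34 CPM with DMSO, a rise with KB02 of 1.02 ± 0.08 on the log2 scale (adjusted p = 1.73e-12). HUWE1, a ligase that marks MCL1 for degradation, averaged 92.0 ± 8.21, 168 ± 0.597 and 126 ± 4.56 CPM with KB05, KB02 and DMSO, falling by 0.45 ± 0.07 with KB05 (adjusted p = 7.06e-06) and rising by 0.42 ± 0.07 with KB02 (8.53e-06). FBXW7 and BTRC, substrate receptors of ubiquitin ligases that can recognise MCL1, rose with both compounds, FBXW7 by 0.74 ± 0.09 with KB05 (adjusted p = 7.94e-08) and 0.56 ± 0.09 with KB02 (4.26e-06). BIRC6, HUWE1 and USP9X share a large size, with 17.9, 17.4 and 14.0 kb of exon sequence. Over the 1785 tested genes with at least 10 kb of exon, the median log2 change was -0.16 for KB05 against DMSO, 0.06 for KB02 against DMSO and -0.16 for KB05 against KB02, beside all-gene medians of -0.00, 0.00 and 0.06. The part of length in these results was not tested.

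Of 8 genes for mitochondrial partners of BAX and BAK1 (outer membrane channels, fusion and fission), none rose with either compound, 2 fell with KB05 and 3 fell with KB02, beside 21.1% and 23.3% of all genes that fell. The largest change was in OPA1, a GTPase that shapes the cristae in which cytochrome c is held, which fell by 0.62 ± 0.11 with KB05 (adjusted p = 2.25e-05). VDAC3, a channel of the outer membrane, fell by 0.36 ± 0.08 with KB02 (adjusted p = 0.000168). The other calls were small: MFN2 fell by 0.22 ± 0.07 with KB05 (adjusted p = 0.0105, and 0.0515 without KB05 replicate 3), and the KB02 calls of MTCH2 (-0.20 ± 0.07, 0.0126) and VDAC1 (-0.16 ± 0.07, 0.047) were lost in 5 and 12 of 17 settings, with adjusted p up to 0.408 and 0.738.

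**Figure D4:**
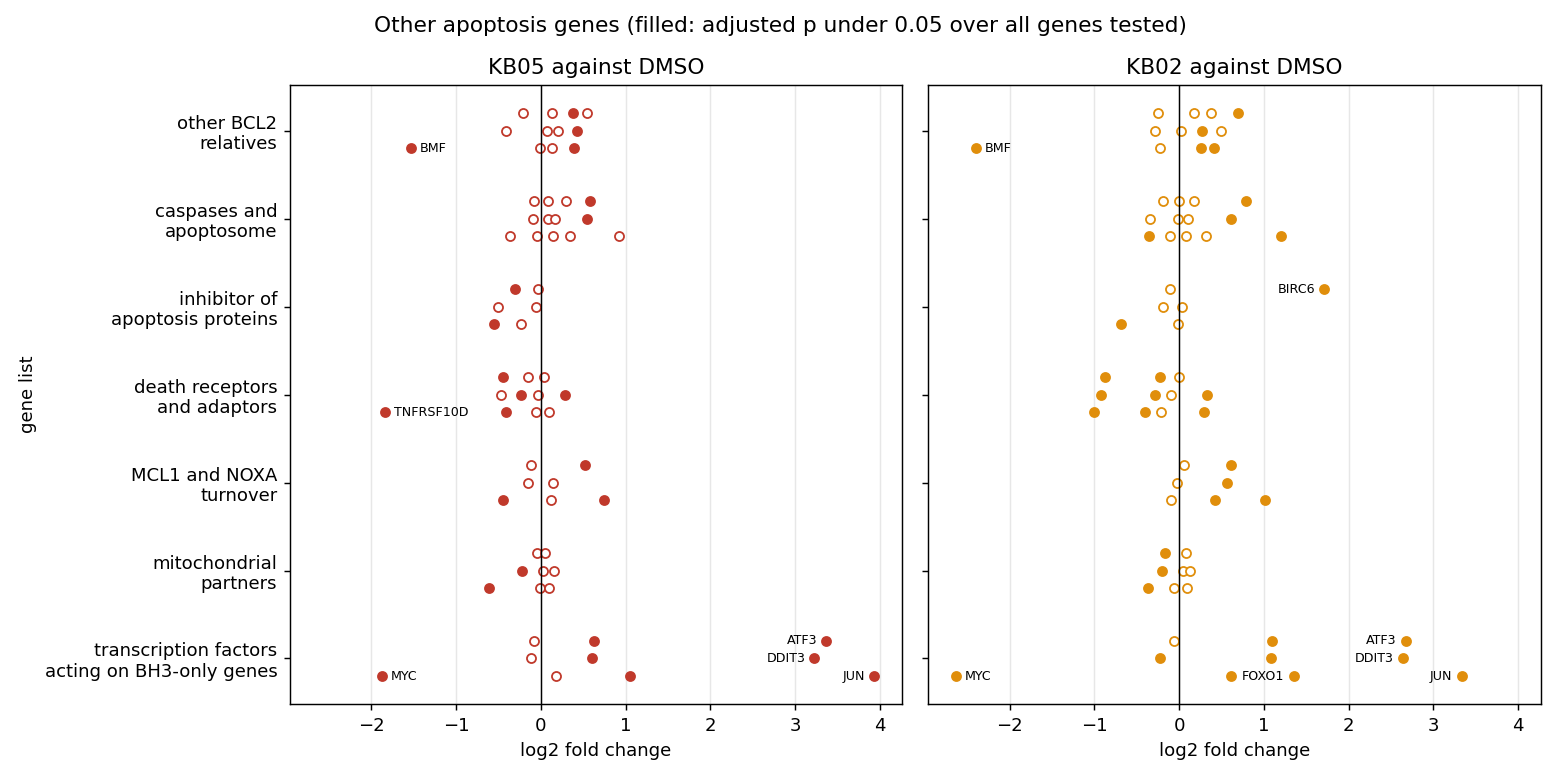
Log2 fold changes of the measured genes of 7 further apoptosis lists, for KB05 against DMSO (left) and KB02 against DMSO (right), 1 point per gene, filled where the adjusted p over all genes tested was under 0.05 and named where such a change reached 1.3 in size. BMF lies at -1.54 with KB05 and -2.39 with KB02, and JUN, ATF3 and DDIT3 stand above 2.6 with both compounds.

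The last list holds 10 transcription factors known to act on BH3-only genes, of which 6 rose and 1 fell with KB05 and 7 rose and 2 fell with KB02. Shares of all genes called were 39.8% for KB05 and 46.1% for KB02. This list was chosen with earlier results known and was not tested as a set. JUN, a subunit of AP-1, averaged 1120 ± 49.3 CPM with KB05, 738 ± 34.7 CPM with KB02 and 73.2 ± 2.70 CPM with DMSO (log2 3.93 ± 0.08, adjusted p = 2.37e-26, and 3.33 ± 0.08, adjusted p = 5.17e-25). ATF3 (log2 3.37 ± 0.08, adjusted p = 8.72e-25) and DDIT3 (3.23 ± 0.08, 1.72e-24), factors of the integrated stress response, rose most with KB05 after JUN, and they rose with KB02 by 2.67 ± 0.08 and 2.64 ± 0.08 (adjusted p = 1.96e-22 for both). All 3 were called higher with KB05 than with KB02. ATF4, which acts on PMAIP1 in human cells, averaged 659 ± 10.9 CPM with KB05, 911 ± 51.8 CPM with KB02 and 426 ± 17.1 CPM with DMSO. FOXO3, which acts on BCL2L11 and BBC3, averaged 31.2 ± 1.47, 43.8 ± 5.46 and 20.6 ± 0.52 CPM. MYC, a growth-promoting factor that can raise BCL2L11 and BBC3, averaged 38.8 ± 0.938, 23.0 ± 2.48 and 143 ± 12.7 CPM with KB05, KB02 and DMSO.

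The genes most like PMAIP1 across the 9 libraries, among 13086 named genes with a log2 CPM averaging 1 or more, were DLL4, PINX1, MAP3K13, LYAR and DNAJB4, with Pearson's r of log2 CPM between 0.9923 and 0.9967. Those most like MCL1 were DDIT3, ATF3, JUNB, DDIT4 and JUN, with r between 0.99 and 0.9942. The libraries form 3 separate groups, so these values describe 3 group levels and carry no p. DLL4, a ligand of Notch receptors, changed by 3.40 with KB05 and 3.86 with KB02 on the log2 scale, in the same order of the compounds as PMAIP1, and DNAJB4, a heat shock co-chaperone, by 2.63 and 3.04. The 5 genes like MCL1 changed more with KB05 than with KB02, with log2 changes of 2.52 to 3.93 against 1.95 to 3.33. Genes chosen by r with PMAIP1 or MCL1 share its order of groups through that choice, so this order is not a separate result. The PMAIP1 difference between the compounds was itself not called.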

How the data were processed

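Libraries of 22Rv1 cells were sequenced after KB05, KB02 or DMSO (3 each). The deposited values are estimated counts per gene with no scaling to depth, which the authors made with Salmon 1.3.0 on hg38 or GRCh38.p13, per the submitters' processing notes, which also name DESeq2 1.30.1. Not given in the sources used here are the annotation release, the strand setting and how transcripts were summed, so counts of overlapping genes are uncertain. Counts were rounded, filtered with filterByExpr (minimum count 10), scaled by TMM and tested in edgeR 4.0.16 (R 4.3.3) with a quasi-likelihood model of 3 groups and no block, with Benjamini-Hochberg adjustment over 18379 genes. The SE is the size of the log2 fold change divided by the square root of F. Total counts were 15507130 to 21900671, and a count of 3 in a library, 0.129 to 0.195 CPM, is the floor for a gene with no reads, for counting error only. Replicate libraries differed by more than sampling noise (chi-square divided by its degrees of freedom 4.28 to 9.75). That spread cannot show whether the cultures were independent, because library preparation adds to it too. All 9 libraries were counted separately. The p-values measure the spread between these libraries.

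The 10 members and the 7 further gene lists were chosen with earlier results of these data known. Genes named from a list are, in each comparison, its 3 called genes that changed most among those averaging 1 or more in log2 CPM, other list genes are named as examples, and pattern neighbours are the 5 genes with the highest r. Gene positions are from GENCODE release 29 and promoters from RefSeq. Protein sequences were not used here. The 15 samples at 8 h were not analysed here. Some genes of the lists are counted but not reported here by name. Alternatives were RLE, upper-quartile and library-size scaling, no filter on low counts, DESeq2 1.42.0, only the 2 groups compared, the replicate number as a block, each library left out in turn and BCL2L2 summed with its read-through gene.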

Additional observations from a re-analysis of the deposited data

How the results depend on the processing

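The counts of genes changed, the member results and those of list genes named by the rule above were recomputed under 17 alternatives. Of 30 member results, 16 kept direction and side of the threshold in all of them, among them PMAIP1, BBC3, BIK and MCL1 in both comparisons with DMSO, as did 48 of 56 results of named list genes. The members changed, KB05 against KB02, numbered 5, and 3 with library size only, 3 with DESeq2 and 3 with only the 2 groups compared. With 1 library left out they numbered 2 to 5. For KB02 against DMSO, library size only gave 6 members higher and 0 lower. Library size alone moved the median log2 change of all genes to 0.13 for KB02 against DMSO and to -0.06 for KB05 against KB02, so that 63.8% (not 49.5%) and 37.4% (not 54.4%) of the genes changed were higher. Changes of sign were seen for values that were not called. BAK1 for KB02 against DMSO was 0.046 with library size only and 0.017 without KB02 replicate 1. BAX for KB02 against DMSO was -0.027 without DMSO replicate 1 and -0.07 without KB02 replicate 3, and for KB05 against KB02 it was -0.014 with library size only. BID for KB05 against DMSO was -0.009 with RLE factors and with DESeq2, -0.001 without DMSO replicate 1 and -0.065 without KB05 replicate 3. BCL2L2 for KB05 against DMSO was 0.01 with upper-quartile factors, 0.055 without DMSO replicate 1 and 0.085 summed with its read-through gene. BCL2L1 for KB05 against KB02 was -0.068 with library size only, and -0.002, -0.037 and -0.008 without DMSO replicate 2, KB02 replicate 1 and KB05 replicate 1. With 1 library left out, BAX and BAK1 for KB02 against DMSO ran from -0.07 to 0.108 and from -0.134 to 0.017, BID and BCL2L2 for KB05 against DMSO from -0.065 to 0.04 and from -0.101 to 0.055, and BCL2L1 for KB05 against KB02 from -0.037 to 0.089. The cause of these moves was not tested.

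Deviations of same-numbered libraries correlated weakly (-0.041 to 0.081), beside -0.066 to 0.039 for libraries with different numbers. For KB02 against DMSO, the same-numbered values were 0.036, 0.024 and 0.081, and the others ran from -0.066 to 0.033. Values this small cannot settle whether the numbers pair the libraries. With the replicate number as a block, 7476 genes changed for KB05 against DMSO, 8600 for KB02 against DMSO and 7518 for KB05 against KB02, against 7321, 8470 and 7346 without it, and no member's call changed. BIK, BID and BCL2L11 rest on the fewest counts of the members, which limits small differences most there.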
